A study of Mus musculus with 4 samples.

Results

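The lysosome is the acidic organelle in which phagocytes break down what they engulf. Its soluble enzymes cut proteins, sugar chains and lipids, its membrane proteins shield the organelle and move products out, and a rotary proton pump, the V-ATPase, keeps its interior acid. Macrophages are rich in lysosomes, and neutrophils carry several of the same hydrolases in their granules. The 36 genes described here encode lysosomal hydrolases, their cofactors, lysosomal membrane proteins and subunits of the proton pump. They were taken as a list of gene names, chosen with earlier results of these data known. They fall into 5 roles: cathepsins and other proteases, glycosidases, lipid enzymes and cofactors, membrane proteins, and the proton pump.

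RNA came from cells washed out of the mouse peritoneal cavity 24 h after injection of thioglycollate broth (2 ml at 4%), a sterile irritant that recruits neutrophils and monocytes. Wild-type (+/+) mice were set against C/EBPε-deficient (-/-) mice, which lack a regulator of granulocyte and macrophage maturation encoded by Cebpe, both on a 129/SvEv x NIH Black Swiss background and 6 to 8 weeks old, 4 mice per genotype. The labels put the cells of both genotypes at about 30% monocytes, 60% neutrophils and 7 to 10% lymphocytes, so every value belongs to a mixture in which fewer cells of a type and less RNA per cell cannot be told apart. The deficiency is carried by all cells of the animal, and the label text on whether the cells of several mice were combined breaks off. There were 4 Affymetrix arrays, 1 per genotype on each of 2 array types, called A and B here, which carry different probe sets and are not replicates of each other. No test was therefore possible, and no difference below has a replicate check. No probe set was annotated to Cebpe alone, so its signal was not read and the genotype labels are taken as given. On type B the deficient array is known as such from its title, since the source label is that of the wild-type cells.

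A probe set is a group of oligonucleotides meant to read 1 transcript. A member was measured where a probe set annotated to that gene alone lay above a signal floor, the median of all values on that array type (1036 on A, 690 on B), in both genotypes. Of the 36 genes, 30 had a probe set, 40 probe sets in all, among 6137 named genes and 7542 named probe sets. Affymetrix marks 12 of the 40 as shared within a sequence family, and 6 members were read on such a probe set. Ctsz, Tpp1, Lipa, Asah1, Npc2 and Atp6v0c had none. Glb1, the lysosomal beta-galactosidase, read 903 in wild-type cells and 669 in deficient ones, both under the floor. The other 29 had a log2 ratio, deficient over wild-type, of which 18 were read on A and 11 on B. Where a gene had several measured probe sets, the one brightest relative to the floor was read. Probe sets of the same gene differed by an SD of 0.34 log2 units for the brighter probe sets (245 genes), whose mean signal was at least 3 times the floor, and by 0.46 for the dimmer ones (74 genes). That spread is used below as the error of a ratio and holds no variation between mice.

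Most lysosomal genes differed little between the genotypes, with 19 of 29 measured members higher in deficient cells and 10 lower, and their median log2 ratio was 0.12. Across all 3131 measured genes 51.1% were higher and the median was 0.011. By the probe set read for each gene, Ctse, cathepsin E, was 6.48-fold lower and was the 1 member past 2-fold. Of all measured genes 3.64% were lower by that much. No member was higher by 2-fold or more on that reading, where 2.97% of all genes were. A second Ctsc probe set, above the floor in deficient cells only, was at least 4.02-fold higher. At 1.5-fold, 3 members were higher (Man2b1, Ppt1 and Gaa) and 1 lower, against 11.7% and 11.4% of all genes. Past 1.5-fold the members' shares were thus near or under those of all measured genes. The comparison is not matched for brightness, since 28 of the 29 members had brighter probe sets. The shares of all genes include the dimmer ones, which vary more. Of the 29, 20 lay within 1 error SD of no difference. Beyond it were 7 higher members and 2 lower ones, while 21.1% of all genes were higher and 19.8% lower by more than that. The members past 2 error SDs were Ctse, Man2b1 and Ppt1, and all genes were higher by that much in 6.52% of cases and lower in 7.09%. Without Ctse the median of the members was 0.12.

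**Figure D1:**
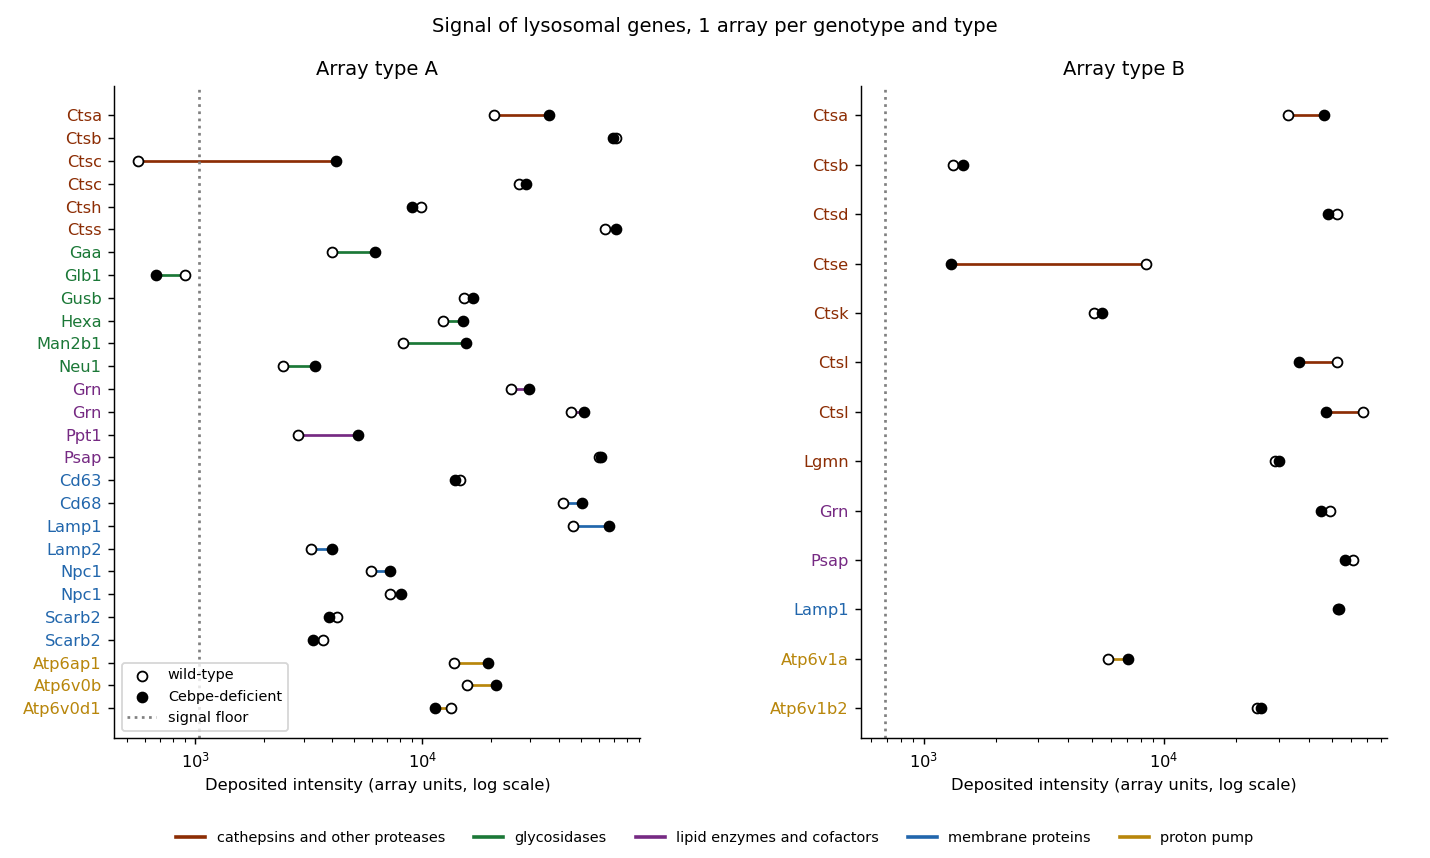
Deposited intensity (log scale) of each member probe set in wild-type (open circles) and Cebpe-deficient cells (filled circles), 1 array per genotype, with array type A on the left and B on the right, gene names and lines coloured by role and the signal floor dotted. Most pairs lie close together, Ctse on B is far lower in deficient cells (8417 against 1299), and 1 of the Ctsc probe sets on A crosses the floor.

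Many promoters of lysosomal genes are known to carry an E-box, CACGTG, within a longer element bound by the transcription factor TFEB and its relatives. RefSeq promoter windows (GRCm38.p6, 250 bases before to 50 after an annotated start) were matched by symbol for 30 of the 36 members, with 35 windows. CACGTG, which reads the same on both strands, was found in 10 of these 30 genes, 33.3%. It was present in 8.09% of all 27025 genes in the table and in 13% of the 2516 measured genes that matched. The longer TCACGTGA, which contains CACGTG and is also its own reverse complement, was found in 4 members (Ctsa, Ctsd, Atp6v1a and Atp6v0d1), 13.3%, against 1.12% of all genes and 2.42% of measured ones. A match is a description of the letters only. One window of 26 bases, read on the gene's strand and ending no later than the annotated start, is shown for 8 of the measured members with the E-box, to set the shared element beside genes whose signal was higher, lower or about the same. The E-box is in capitals.
Ctsa, chr2:164833747-164833772, plus strand: aatgagcaaactgtCACGTGatgcag
Gaa, chr11:119267813-119267838, plus strand: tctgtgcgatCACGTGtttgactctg
Atp6v0b, chr4:117887350-117887375, minus strand: gcgcgggggtCACGTGgggtcggcgc
Atp6v1a, chr16:44139375-44139400, minus strand: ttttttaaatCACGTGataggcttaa
Lamp1, chr8:13159090-13159115, plus strand: ggcaagatatCACGTGgtccagcgcc
Lgmn, chr12:102439126-102439151, minus strand: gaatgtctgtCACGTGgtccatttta
Ctsd, chr7:142387910-142387935, minus strand: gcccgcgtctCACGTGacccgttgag
Ctsl, chr13:64370741-64370766, minus strand: cgttagaagcCACGTGctgatctaaa

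The genes with this element had ratios of both signs, but only Gaa, Ctsa, Atp6v0b and Ctsl were past 1 error SD. Of the 9 measured ones, 6 were higher (Gaa, Ctsa, Atp6v0b, Atp6v1a, Lgmn and Lamp1) and 3 lower (Ctsd, Atp6v0d1 and Ctsl), over log2 ratios from -0.51 for Ctsl to 0.63 for Gaa. Letters known from C/EBP binding sites, TTGCNNAA on either strand, were found in 7 of the 30 members, 23.3%, against 12.2% of all genes and 10.8% of measured ones. These were Gaa, Ppt1, Atp6ap1, Cd68, Ctsk, Npc2 and Ctsl. Of the 6 measured among them, Gaa, Ppt1, Atp6ap1, Cd68 and Ctsk were higher and Ctsl was lower. Cd68 and Ctsk lay within 1 error SD of no difference. For both motifs, the shares to set beside these are 19 of 29 measured members higher and 51.1% of all measured genes. Whether either motif goes with a direction was not tested.

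The cathepsins and other proteases went both ways, with 5 of 10 measured genes higher and a median log2 ratio of 0.0016. Ctse encodes an aspartic protease found mainly in endosomes. It read 8417 in wild-type cells and 1299 in deficient ones, the latter 1.88 times the floor, a log2 ratio of -2.70 by its only probe set. Of 3131 measured genes 1 had a lower ratio. A floor at the 70th percentile put the deficient reading below it, and Ctse was then at least 4.12-fold lower. The lysosomal aspartic protease, Ctsd, read 52341 and 48229, a log2 ratio of -0.12. The 2 aspartic cathepsins thus stood far apart, and Ctsd lay within 1 error SD of no difference.

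Among the cysteine cathepsins, Ctsl, which cuts proteins broadly in the lysosome, was lower by both of its probe sets on B. It read 67537 in wild-type cells and 47452 in deficient ones by 1 of them and 52429 and 36504 by the other, which is 1.42-fold and 1.44-fold lower. The probe sets, both marked as shared within a sequence family, repeat each other on the same arrays. The difference is past 1 error SD. Under quantile (-0.29), loess (-0.32) and bacterial-control (-0.16) scaling it was within 1 error SD. Ctsb, the other broadly acting cathepsin, read 71343 and 69127, a log2 ratio of -0.046, and its dim probe set on B stood at 0.15. Ctss, the cathepsin that trims the invariant chain of MHC class II, read 63608 and 71725 (0.17). Ctsk, known from bone resorption, read 5090 and 5517 (0.12), and Ctsh, an aminopeptidase, 9900 and 8983 (-0.14). These 4 lay within 1 error SD. Ctsc, dipeptidyl peptidase I, activates the serine proteases of neutrophil granules. Its brighter probe set read 26642 and 28651, a log2 ratio of 0.10, whereas its second probe set read 561 and 4169, above the floor in deficient cells only and at least 4.02-fold higher. Both readings of Ctsc were higher in deficient cells, but they differed widely in size, and the brighter one lay within 1 error SD.

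Ctsa, the carboxypeptidase that also protects beta-galactosidase and neuraminidase in the lysosome, had the highest ratio of the proteases by the probe set read for each gene, although the second Ctsc probe set was higher. It read 32889 in wild-type cells and 46215 in deficient ones on B, 1.41-fold higher, and 20740 and 36292 on A, 1.75-fold higher. Both array types put it beyond 1 error SD in the same direction. Its partner in that complex, the sialidase Neu1, read 2430 and 3360, a log2 ratio of 0.47. Lgmn, legumain, which cuts after asparagine and processes several cathepsins, read 29007 and 30008 (0.049).

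**Figure D2:**
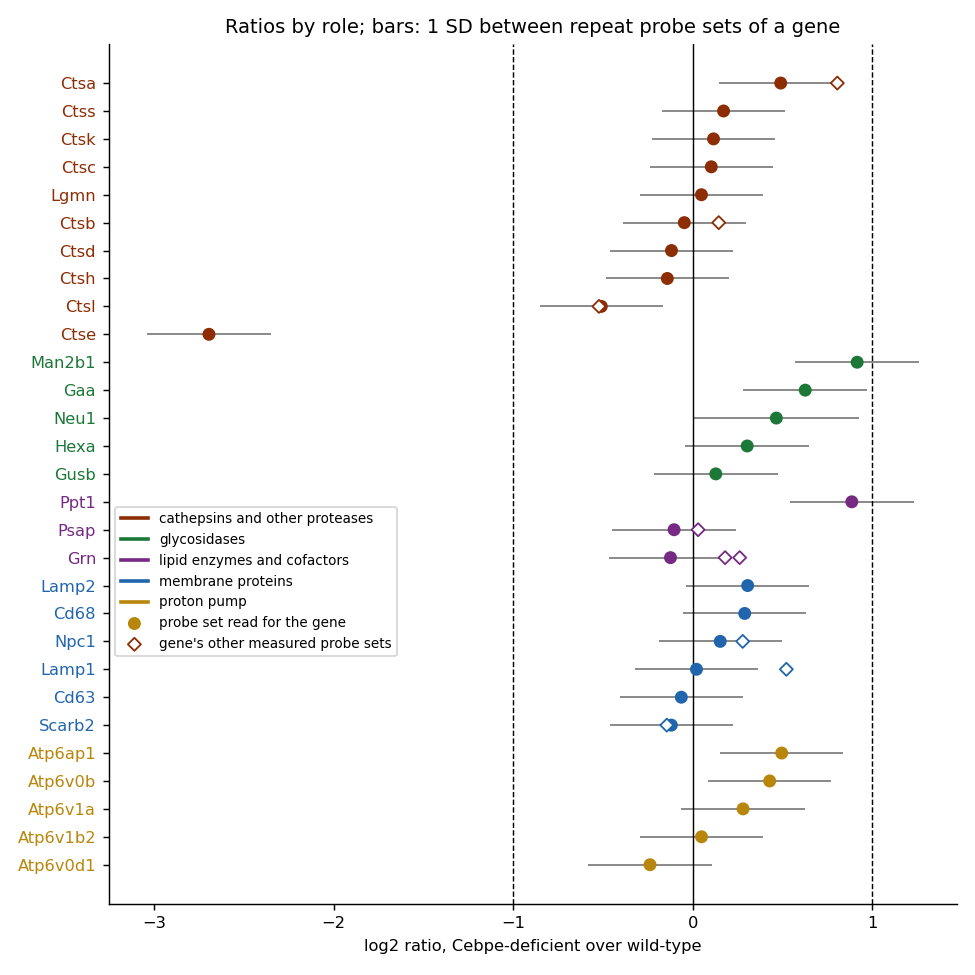
log2 ratio of Cebpe-deficient over wild-type signal for the 29 measured members, grouped and coloured by role; filled points are the probe set read for the gene, open diamonds its other measured probe sets, bars 1 SD between repeat probe sets of a gene, and dashed lines 2-fold. Ctse at -2.70 is the only point past a dashed line, and the 5 glycosidases all lie to the right of 0.

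The glycosidases, which strip sugars from glycoproteins, glycolipids and glycogen, were the role in which all measured genes were higher, 5 of 5, with a median log2 ratio of 0.47, and each stayed above 0 under each scaling tried. Man2b1, the alpha-mannosidase, read 8265 in wild-type cells and 15616 in deficient ones, 1.89-fold higher, and 127 of 3131 genes had a higher ratio. Gaa, the enzyme that digests glycogen, read 3994 and 6174, 1.55-fold higher. Hexa, the alpha subunit of beta-hexosaminidase, read 12300 and 15196 (log2 ratio 0.30). Gusb, beta-glucuronidase, read 15318 and 16764 (0.13). Man2b1 was beyond 2 error SDs, Gaa and Neu1 beyond 1, and Hexa and Gusb within it. All 5 were measured on A alone, each by 1 probe set, so none has a second reading. With the floor at the 30th percentile Glb1 was measured at -0.43, which made it 5 of 6 higher.

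Of the lipid enzymes and cofactors 3 of 6 were measured. Ppt1, which removes palmitate from proteins, read 2822 in wild-type cells and 5223 in deficient ones, 1.85-fold higher, and 141 genes had a higher ratio. Psap, the precursor of the saposins that present lipids to hydrolases, read 61122 and 56887 on B (log2 ratio -0.10) and 59857 and 61179 on A (0.031). Grn, progranulin, a secreted protein that also acts inside lysosomes, read 49276 and 45231 on B (-0.12), and its probe sets on A stood at 0.18 and 0.26. Psap and Grn thus had opposite signs on the 2 array types, each within 1 error SD. The median of the 3 genes, -0.10, is that of Psap and became positive with quantile scaling (0.12), loess (0.087), the bacterial controls (0.24) and the mean over probe sets (0.11).

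The membrane proteins differed little. Of 6 measured, 4 were higher and all lay within 1 error SD, with a median log2 ratio of 0.088. Cd68, the macrophage relative of the LAMP proteins, read 41539 in wild-type cells and 50831 in deficient ones (0.29). Lamp2, which takes part in chaperone-mediated autophagy, read 3244 and 4015 (0.31). Npc1, which exports cholesterol from the lysosome, was higher by both of its probe sets, at 0.15 and 0.28. Scarb2, the receptor that carries beta-glucocerebrosidase to the lysosome, read 4196 and 3867 (-0.12), and Cd63, a tetraspanin of late endosomes and granules, 14627 and 14010 (-0.063). Lamp1, the most widely used marker of the lysosomal membrane, read 52987 and 53773 on B (0.022) but 46253 and 66481 on A (0.52). The difference of 0.50 between its readings is larger than that for any other member measured on both types.

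Of the proton pump 5 of 6 listed subunits were measured, and 4 of these were higher, with a median log2 ratio of 0.28. Atp6ap1, an accessory subunit, read 13866 in wild-type cells and 19574 in deficient ones, 1.41-fold higher. Atp6v0b, part of the proteolipid ring in the membrane, read 15697 and 21153, 1.35-fold higher. Both were past 1 error SD. Subunits of the catalytic head stood at 0.28 (Atp6v1a, 5853 and 7111) and 0.050 (Atp6v1b2, 24463 and 25315), and the latter turned to -0.13 with equal medians. Atp6v0d1, which joins the ring to the stalk, read 13373 and 11349 (-0.24) and was lower under each scaling. Atp6v0d1, Atp6v1a and Atp6v1b2 lay within 1 error SD of no difference. The 1 lower subunit was thus among those inside the error.

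On the 2 array types 5 members could be read side by side, and their ratios were higher on A than on B for 4 of them: Ctsa (0.81 and 0.49), Lamp1 (0.52 and 0.022), Grn (0.18 and -0.12) and Psap (0.031 and -0.10). Ctsb went the other way (-0.046 and 0.15). Only Ctsa and Lamp1 had the same sign on both. Among all 163 genes measured on both types, 75 were higher on A and 110 had the same sign, and the SD of the difference was 0.51. All of these readings but the Ctsb one on B came from probe sets marked by Affymetrix as shared within a sequence family. Of the 18 members read on A 13 were higher (median 0.23), and of the 11 read on B 6 were (median 0.022), where all genes read on A and B were higher in 52.8% and 47.1% of cases.

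**Figure D3:**
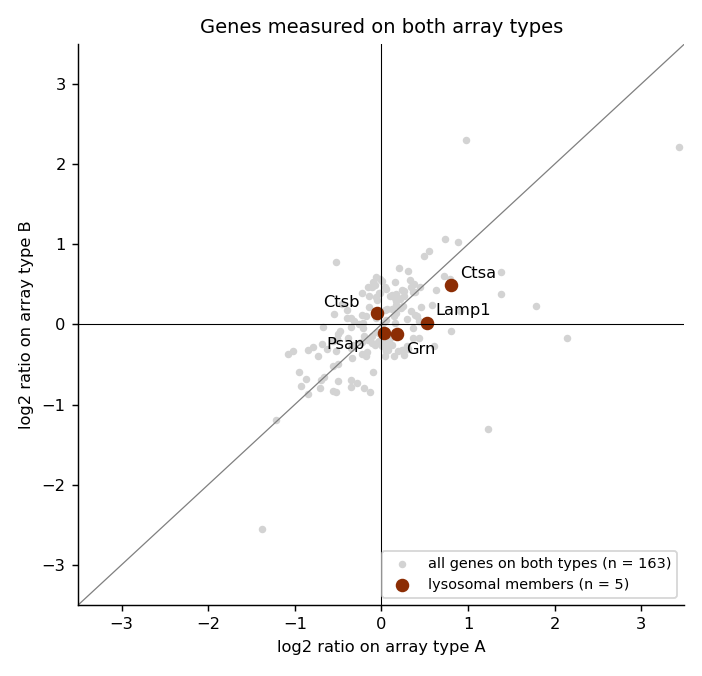
log2 ratio of Cebpe-deficient over wild-type signal on array type A (horizontal) and B (vertical) for 163 genes measured on both, the 5 lysosomal members in colour and the diagonal marking equal ratios. Ctsa is above 0 on both types, while Lamp1, Grn and Psap lie below the diagonal.

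A second list of lysosomal genes, 82 further hydrolases, membrane proteins, pump subunits, sorting factors and transcription factors, was read in the same way. It too was chosen with earlier results of these data known. Of 30 measured, 25 were higher in deficient cells and 5 lower, with a median log2 ratio of 0.26, beside 51.1% higher and 0.011 over all genes. By 2-fold or more 5 were higher and 1 lower, where 2.97% and 3.64% of all genes were. The higher ones, named after their values were seen, were Gpr137b, a lysosomal membrane protein, at 2.03 and 0.68 by its probe sets, Ap1g1, a subunit of the AP-1 sorting adaptor, at 1.38 and 0.38, Smpdl3a, a phosphodiesterase, at 1.36, Slc11a1, the metal transporter of phagosomes, at 1.10 and Acp2, lysosomal acid phosphatase, at 1.08. The Ap1g1 ratio of 1.38 came from readings of 1117 and 2909 on A, where the floor was 1036. Another Ap1g1 probe set, on B, lay under the floor in both genotypes. The lowest genes of the list were Cd164, a sialomucin, which read 12077 and 5114 (-1.24), and Hyal2, a hyaluronidase, at -0.55. Idua, the iduronidase, was above the floor in deficient cells only, at least 3.13-fold higher on B and 1.14-fold on A. Man2b2, a second alpha-mannosidase, stood at 0.85 by 1 probe set and at least 5.06-fold higher by the other, which read 932 and 5250. Of the 5 further glycosidases measured, 4 were higher (median 0.57), and all 3 measured lipid genes were higher (median 0.61), among them Gm2a, the GM2 activator that works with beta-hexosaminidase, also named after its value was seen, which read 13363 and 20432. Phosphatases and nucleases (2 measured) had a median of 0.65, membrane proteins (6) 0.37 and sorting factors (8) 0.27. Medians were lower for pump subunits (0.082, 3 measured) and for proteases and inhibitors (0.061, 2 measured). The 1 measured sulphatase was lower (-0.21). Of the listed transcription factors only Tfeb and Mitf had a probe set, and each lay under the floor in both genotypes. Over the scalings tried the higher genes of this list numbered 23 to 25. Under bacterial-control scaling 25 of 29 were higher, where 70.6% of all genes were. There 22 of the 29 lay above the median of all genes.

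**Figure D4:**
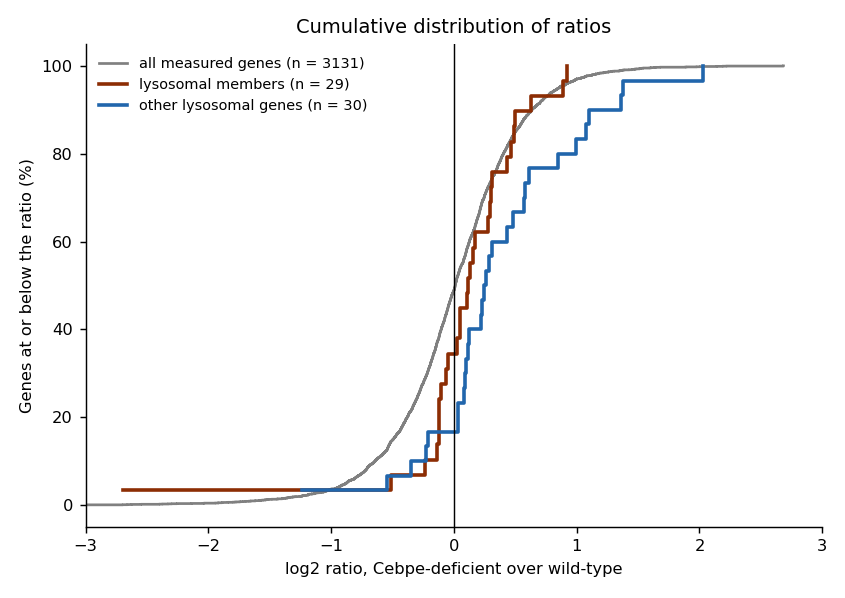
Cumulative share of genes at or below each log2 ratio (Cebpe-deficient over wild-type) for all 3131 measured genes, the 29 lysosomal members and the 30 measured genes of the second lysosomal list. The members' curve lies to the right of the grey curve around its centre and to the left at both ends. Its upper quartile is 0.31, against 0.32 for all genes. The curve of the second list lies to the right of the grey one over most of the range.

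Markers of the cells in the exudate were mostly lower. Of 10 measured monocyte and macrophage markers 7 were lower and 3 higher (Ccr2 at 0.97, Csf1r at 0.84 and Mpeg1 at 0.67, named after their values were seen), with a median log2 ratio of -0.66, and their summed signal, over probe sets above the floor in at least 1 genotype, was 91452 in wild-type and 69127 in deficient cells on A and 303921 and 250437 on B. All 8 measured neutrophil markers were lower, with a median of -0.96, and their summed signal was 136417 and 105238 on A and 120123 and 79606 on B. The ratios ran from -0.079 for S100a8 to -2.40 for Il1r2, named after their values were seen. S100a8 and S100a9 (-0.24) lay within 1 error SD of no difference and the others beyond it. The labels put neutrophils at about 60% in both genotypes. Of the neutrophil list Camp lay under the floor in both genotypes. The 4 measured B cell markers had a median of -0.24. None of the T and NK cell markers was above the floor in both genotypes, and the mesothelial and fibroblast markers had 3 measured genes, all lower, with a median of -1.51. The mast cell and basophil list had 2 measured genes with a median of 0.040, and the eosinophil list 1, Ccr3, at -1.92. The part of cell composition in the lysosomal ratios was not tested.

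Scaling to the bacterial control transcripts moved the median of all genes by 0.23, to 0.24. The members' median was then 0.38, which is 0.14 above that of all genes, close to the 0.11 of the reported scaling. Under it Man2b1 (1.12) and Ppt1 (1.09) passed 2-fold, and 26 of 29 members were above 0 and 20 above the median of all genes. With equal medians 16 were above 0 and 13 below. The glycosidases had the highest median of the 5 roles under each scaling, and the proteases or the lipid genes the lowest in each case. The roles differ in how many of their genes were read on each array type, and the glycosidases were read on A only. On A alone their median was 0.47, close to that of the pump, 0.43 over 3 subunits.

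**Figure D5:**
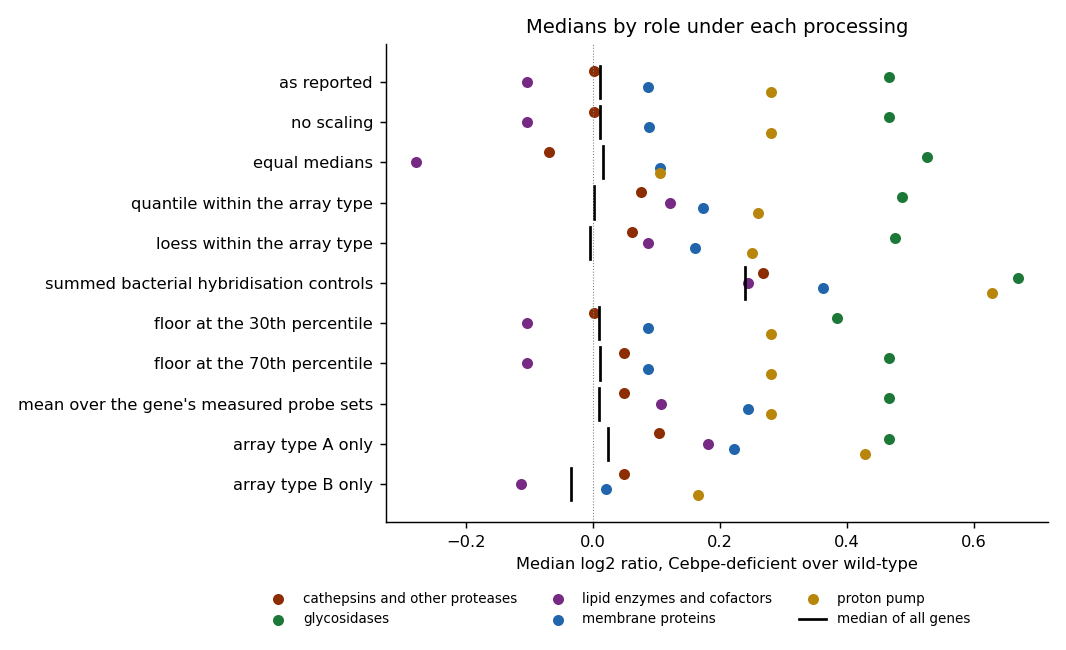
Median log2 ratio (Cebpe-deficient over wild-type) of each role under the reported processing and 10 alternatives, with the median of all genes as a black bar. The glycosidase median lies between 0.39 and 0.67 in the settings plotted that give one, and the other roles lie closer to the bar there; the settings that leave out suffixed probe sets are not plotted.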

How the data were processed

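Per the values themselves, the deposited numbers are 1-colour array intensities, linear and whole, and 20.7% to 29.3% of them per array lie below 0. How the authors processed and scaled them is not given in the sources used here. Probe sets were named by the platform annotation, and those with no symbol or more than 1 were left out of gene values. Both arrays of a type were brought to the same trimmed mean, which leaves out control probe sets and 2% of values at each end (factors 0.9998 to 1.0002). Intensities are printed as deposited, and ratios come from scaled values. A probe set above the floor on 1 array gave a bound against it. With 1 array per genotype and type there is no test, and the number of arrays limits the precision. All members were named, and of the second lysosomal list the 2 highest and 2 lowest ratios and bounds of 2-fold or more, plus those said to be chosen later. The members and lists were chosen with earlier results of these data known. Alternatives covered scaling, floor, probe set choice, suffixed probe sets, array type and fold. The ratio code was tested on simulated data. Python 3.11.15, numpy 2.4.6, pandas 2.3.3, statsmodels 0.14.6 (loess, span 0.3) and matplotlib 3.10.9 were used.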

Additional observations from a re-analysis of the deposited data

How the results depend on the processing

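Of 29 measured members, 18 kept their sign under each alternative run for single genes (15 higher and 3 lower: Ctse, Ctsl and Atp6v0d1). The other 11 were Ctsb, Ctsd, Ctsh, Ctsk, Lgmn, Psap, Grn, Lamp1, Cd63, Scarb2 and Atp6v1b2. Bacterial-control scaling moved the medians to 0.38 for all members, 0.27 for proteases, 0.67 for glycosidases, 0.24 for lipid genes, 0.36 for membrane proteins and 0.63 for the pump, with 2 members past 2-fold higher, in step with a median of all genes of 0.24. Equal medians put the pump at 0.11, and quantile scaling the lipid genes at 0.12. The mean over probe sets put membrane proteins at 0.24. On A alone the members' median was 0.24, the lipid genes stood at 0.18 and 0 members were 2-fold lower, since Ctse is on B. On B alone the members' median was 0.036. With the floor at the 70th percentile 0 members were 2-fold lower by a ratio, and Ctse had a bound of -2.04. The bound of the second Ctsc probe set was 1.63-fold there. At 1.5-fold 3 members were higher. Leaving out all suffixed probe sets kept 3 members, 0 of them 2-fold lower, with 1 protease at 0.15 and no value for the glycosidases, lipid genes and pump. Leaving out only family, _g, _r and _i probe sets, chosen after seeing the data, kept 24, with 1 lipid gene at 0.89 and membrane proteins at 0.28. No paired analysis was possible because each genotype has 1 array per array type.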
